A study of Mus musculus with 6 samples.

Results

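The genes described here are 34 enzymes of glycolysis, of the pyruvate branch point and of the pentose phosphate pathway in mouse induced T (iT) cells. The list was set by name and function, by a rule that used no measured value though earlier results of these data were known, and all 34 were found among the 23420 rows of the expression table. Polyadenylated RNA was sequenced from 6 libraries, 3 of CD4 single-positive (CD4SP) and 3 of CD8 single-positive (CD8SP) iT cells, each made from 1000 cells sorted from spleen. Both populations descended from C57BL/6 (CD45.2) embryonic stem cells of the iR9 line, which carries a doxycycline-inducible Runx1-p2a-Hoxa9 cassette at Rosa26. Blood progenitors made from these cells were transplanted into irradiated B-NDG mice, an immunodeficient strain that lacks its own T, B and NK cells. The study describes its main transplants as made without doxycycline, though in a supplementary experiment recipients were fed it. The paper does not state this separately for the mice of these libraries. The cells were gated on donor CD45.2, with Ter119 and CD11b among the markers gated out, then on CD4 or CD8. Neither an untreated nor a wild-type T cell library is in the comparison, so it sets 2 iT cell populations from the same line against each other. The labels do not say whether the 3 libraries of a population came from separate mice, although the study describes each as a biological replicate, and p-values measure only the spread between these libraries.

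Glycolysis splits glucose into pyruvate in the cytosol and yields ATP and NADH. Pyruvate is then reduced to lactate, which restores NAD+, or enters mitochondria, where the pyruvate dehydrogenase complex turns it into acetyl-CoA. The pentose phosphate pathway branches off after the hexokinase step and supplies NADPH and ribose for nucleotides, and T cells are known to raise both pathways when they are activated and divide.

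Values are TPM, a measure of transcript abundance scaled to a fixed library total. The unit divides a gene's reads by its length, and each library summed to 997896 to 998100, so levels can be compared between genes. TPM keeps no sequencing depth, so depth is unknown and no counting interval was possible. Differences are log2 fold changes on log2(TPM + 1), positive where CD4SP was higher, from a linear model fitted with limma over the 10476 genes that reached 1 TPM in at least 3 libraries. A gene was called at a limma adjusted p under 0.05 together with a change over 2-fold. In bulk RNA, fewer cells that express a gene and less RNA of it per cell cannot be told apart.

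The sorted populations carried the markers their labels give. The 6 T cell markers in the table summed to 4960 to 5226 TPM across CD4SP and 4098 to 4593 TPM across CD8SP libraries, and none was called. Under 2-fold, Cd247, Cd2 and Cd3g were higher in CD4SP at a limma adjusted p under 0.05, with log2 fold changes of 0.72, 0.58 and 0.45. Cd3d, Cd3e and Lck did not pass that adjusted p. Cd4 was at 279 to 331 TPM across CD4SP libraries and at no more than 0.104 TPM across CD8SP libraries, while Cd8a was at 0.319 to 2.93 TPM across CD4SP and 1038 to 1161 TPM across CD8SP libraries. Of the 11 myeloid markers in the table, 4 (S100a8, S100a9, Mpo and Elane) were listed at 0 in all libraries, and their summed level was 25.2 to 44.5 TPM across CD4SP and 27.7 to 38.1 TPM across CD8SP libraries. Among them Lyz2 was called higher in CD4SP and Cd68 higher in CD8SP. The 5 NK cell markers summed to 13.7 to 21.3 TPM across CD4SP and 96.1 to 107.5 TPM across CD8SP, with Klrb1c, Eomes and Klre1 called and Ncr1 and Klra8 listed at 0 in all libraries. The 6 erythroid and platelet markers in the table summed to 1.11 TPM at most, and of 6 stromal and endothelial markers Epcam was called higher in CD4SP. Genes of dividing cells, 10 in the list, summed to 1010 to 1402 TPM across CD4SP and 1008 to 1115 TPM across CD8SP libraries, and none was called. Among them only Rrm2 passed a limma adjusted p of 0.05, higher in CD4SP with a log2 fold change of 0.515. The part of these other genes in the results below was not tested.

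In both populations the enzyme transcripts were led by Ldha, and the single gene of the list that was called between them was Ldhb, 5.35 times higher by mean TPM across CD4SP. Of the 34 genes, 29 passed the filter on low values, and 1 of these 29 (3.45%) was called, against 9.73% of all tested genes. Split by direction, 1 was called higher in CD4SP, against 7.92% of all tested genes, and 0 higher in CD8SP, against 1.8%. With no fold threshold, 2 of 29 (6.90%) passed, Ldhb and Pkm, against 20.8% of all tested genes. The 5 genes below the filter were Hk3, Aldoc, Eno2, Pfkfb4 and Pdk2.

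**Figure D1:**
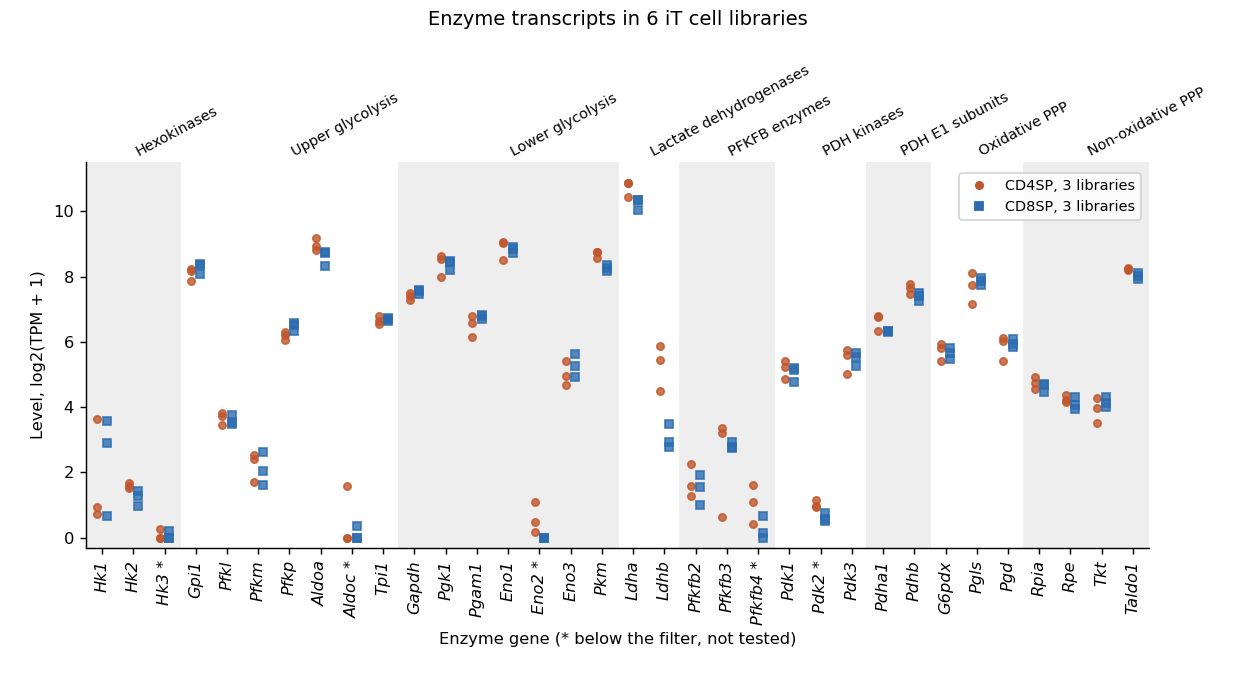
Level of each of the 34 enzyme genes as log2(TPM + 1) (vertical axis) in 3 CD4SP (circles) and 3 CD8SP (squares) libraries, ordered by role along the horizontal axis, with an asterisk on the 5 genes that were not tested. Ldha is highest in every library, at 1052 to 1880 TPM, and Ldhb is the only gene of the list that was called between the populations.

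Because lactate dehydrogenase is the family the comparison turned on, sequence upstream of both genes is shown here. The capitals mark ACGTG on either strand (CACGT on the printed strand), a common form of the core of the hypoxia response element, to which Hif1a protein binds. The same letters lie inside the E-box CACGTG, so the 2 motifs overlap. Each run is the 250 bases before a RefSeq start on GRCm38.p6, read 5′ to 3′ on the gene's strand, at chr7:46845554-46845803 (plus strand) for Ldha and at chr6:142507958-142508207 (minus strand) for Ldhb.
Ldha: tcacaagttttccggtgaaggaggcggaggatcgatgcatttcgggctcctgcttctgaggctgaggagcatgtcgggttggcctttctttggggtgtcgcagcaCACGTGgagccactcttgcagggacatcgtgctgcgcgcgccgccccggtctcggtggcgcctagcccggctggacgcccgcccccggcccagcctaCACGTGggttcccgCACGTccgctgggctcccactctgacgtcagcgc
Ldhb: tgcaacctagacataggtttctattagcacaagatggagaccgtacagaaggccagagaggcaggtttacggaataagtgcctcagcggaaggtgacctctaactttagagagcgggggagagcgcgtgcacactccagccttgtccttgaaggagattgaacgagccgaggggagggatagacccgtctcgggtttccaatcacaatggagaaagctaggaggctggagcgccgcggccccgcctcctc
In windows of 300 bases (250 before to 50 after a start), this Ldha window held 5 matches of ACGTG in 3 places, and 2 of those places were the full CACGTG. From their first letters, the matches lay at -145, -144, -48, -47 and -34 relative to the start. A window at the other Ldha start (chr7:46846832-46847131) and the Ldhb window held no match, which says only that these letters are not there. Other forms of the core were not marked, and the printed Ldhb sequence does hold gcgtg, which differs from ACGTG in its first letter. Of all 32851 promoter windows, 19.6% held ACGTG and 7.15% held CACGTG. All 34 enzyme genes were matched by symbol to 51 windows, of which 21 (41.2%) held ACGTG and 9.80% held CACGTG, but these windows also had more CpG pairs, with a median of 20 against 7 in all windows. A match is a description of letters and not a site of binding.

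Ldha (chr7:46841475-46855627, plus strand, protein coding) encodes the A subunit of lactate dehydrogenase, which prevails in muscle and in cells that ferment glucose. It was at 1880, 1388 and 1847 TPM across CD4SP replicates 1 to 3 and at 1294, 1306 and 1052 TPM across CD8SP replicates 1 to 3. All 3 CD4SP libraries lay above all 3 CD8SP libraries, although CD4SP replicate 2 exceeded the highest CD8SP library by little. By TPM it ranked between 88 and 142 of the 23420 rows, the highest rank of any enzyme on the list in every library. The log2 fold change was 0.48 (95% interval 0.14 to 0.82, SE 0.149), and the limma adjusted p of 0.0527 missed the threshold. That p fell to 0.0110 without CD4SP replicate 2, 0.0490 with a filter of 5 TPM and 0.00610 with library weights, and it was 0.0966 to 0.160 without each of the other 5 libraries, 0.125 with ribosomal protein genes removed, 0.115 with no mean-variance trend and 0.0823 with a replicate block. With median-of-ratios scaling the difference was 0.17 and the limma adjusted p 0.346. With quantile normalization the difference was 0.56 and the limma adjusted p 0.0689.

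Ldhb (chr6:142490249-142507957, minus strand, protein coding) encodes the B subunit, which prevails in heart. Its level was 58.0, 21.4 and 42.8 TPM across CD4SP replicates 1 to 3 and 5.87, 6.72 and 10.2 TPM across CD8SP replicates 1 to 3. The lowest CD4SP library was thus above the highest CD8SP library. Mean levels were 40.7 ± 18.4 TPM (SD, n = 3) for CD4SP against 7.61 ± 2.32 TPM (SD, n = 3) for CD8SP. Its log2 fold change reached 2.20 (95% interval 1.39 to 3.01), with an SE of 0.354 and a limma adjusted p of 0.00421. Leaving out each library in turn gave log2 fold changes of 1.90 to 2.60 with limma adjusted p of 0.00161 to 0.0244, and the 3 other scalings gave 1.88 to 2.09. Ldhb was called under every alternative run.

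Ldhb therefore made up more of the family's transcripts in CD4SP, though Ldha held nearly all of them in both populations. Of summed Ldha and Ldhb TPM, Ldhb took 2.99%, 1.52% and 2.26% in CD4SP replicates 1 to 3 and 0.452%, 0.512% and 0.964% in CD8SP replicates 1 to 3. The log2 ratio of Ldha to Ldhb within a library, taken here as for the other pairs with 1 TPM added to each gene, was 5.45 ± 0.48 (SD, n = 3) for CD4SP against 7.17 ± 0.54 (SD, n = 3) for CD8SP. The difference of -1.72 had an exact two-sided permutation p of 0.1, the smallest that 3 libraries against 3 can give, and 0.6 after adjustment over the 6 pairs compared. It was -2.032 to -1.495 when each library was left out in turn and -1.85 with 0.1 TPM added in place of 1 TPM.

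**Figure D2:**
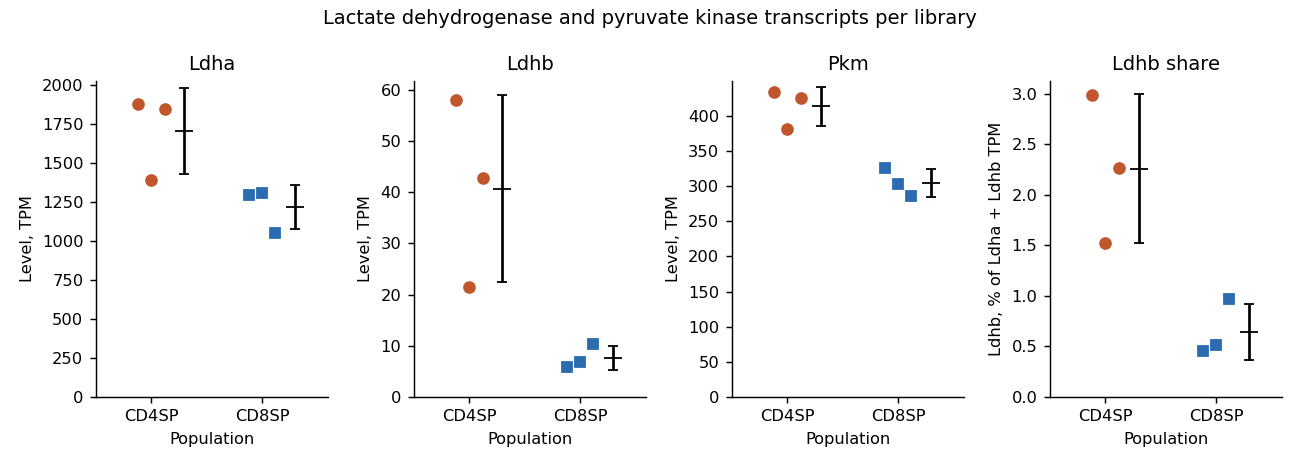
TPM of Ldha, Ldhb and Pkm in each library, and Ldhb as a percentage of Ldha plus Ldhb TPM, for CD4SP (circles) and CD8SP (squares), with the mean and SD of 3 libraries as a bar. Ldhb spans 21.4 to 58.0 TPM across CD4SP and 5.87 to 10.2 TPM across CD8SP, and its share stays at or below 2.99%.

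Pkm (chr9:59656368-59679375, plus strand), which encodes pyruvate kinase of muscle and most dividing cells and makes pyruvate with ATP, was the other gene below an adjusted p of 0.05. It was at 434, 382 and 426 TPM across CD4SP replicates 1 to 3 and at 325, 303 and 286 TPM across CD8SP replicates 1 to 3. The populations did not overlap. Its log2 fold change of 0.44 (95% interval 0.19 to 0.69, SE 0.109, limma adjusted p 0.0246) was under 2-fold. When replicate number was a block, the difference was again 0.44, with a limma adjusted p of 0.0650. Without any library other than CD4SP replicate 2 it was 0.40 to 0.49, with limma adjusted p of 0.0684 to 0.0956. With median-of-ratios scaling it was 0.13, with a limma adjusted p of 0.356. With no mean-variance trend, quantile normalization, ribosomal protein genes removed or CD8SP replicates 1 and 2 averaged it was 0.44, 0.27, 0.28 and 0.46. The limma adjusted p was then 0.0759, 0.0885, 0.0693 and 0.0804. That p stayed under 0.05 with library weights, a filter of 5 TPM, no filter, a pseudocount of 0.1 and without CD4SP replicate 2. Ldhb has 1 annotated processed pseudogene (98.0% identical over 1002 nt) and Ldha has 4. Gpi1, Tpi1, Pgk1, Pgam1, Eno1, Pkm and Pdhb have near-identical copies too, such as protein-coding Eno1b, 99.5% identical to Eno1 over 1736 nt. How reads were shared among such copies is not stated, and the levels of these genes carry that limit. Gene-level TPM does not separate the M1 and M2 splice forms of Pkm.

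None of the remaining enzymes of lower glycolysis was called, and all but Eno2 passed the filter. Eno1, the enolase of most tissues, was at 532, 364 and 516 TPM across CD4SP replicates 1 to 3 and at 462, 478 and 421 TPM across CD8SP replicates 1 to 3, which overlap. Its log2 fold change was 0.04 (95% interval -0.32 to 0.39). Eno3, the muscle enolase, was at 41.3, 24.8 and 29.7 TPM across CD4SP and 48.1, 37.4 and 29.2 TPM across CD8SP libraries, again with overlap. Eno1 supplied 90.6% to 94.4% of enolase TPM in the 6 libraries. The log2 ratio of Eno1 to Eno3 differed by 0.29 (exact two-sided permutation p of 0.2, adjusted p of 0.6), and leaving out each library gave 0.13 to 0.41. Eno2, the neuronal enolase, was at 0.401, 0.126 and 1.12 TPM across CD4SP and listed at 0 in all 3 CD8SP libraries. Pgk1, the kinase that makes the first ATP of the pathway, had a log2 fold change of 0.02 (95% interval -0.39 to 0.42). Pgam1, which moves a phosphate within phosphoglycerate, was at 70.3 to 109 TPM across CD4SP and 103 to 113 TPM across CD8SP libraries.

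Gapdh, which oxidises glyceraldehyde 3-phosphate and serves widely as a reference gene, was at 178, 154 and 167 TPM across CD4SP replicates 1 to 3 and at 176, 189 and 190 TPM across CD8SP replicates 1 to 3. These ranges overlap, and its log2 fold change was -0.15 (95% interval -0.41 to 0.10, limma adjusted p 0.344). In the study, Gapdh was also a PCR check of the amplified cDNA before sequencing. Its level is uncertain because reads can be shared with pseudogenes, of which Gm12070, 99.9% identical over 1002 nt, was listed at 71.0 to 102.6 TPM. Gapdh and Gm12070 summed to 225 to 279 TPM across CD4SP and 275 to 291 TPM across CD8SP, with a log2 fold change of -0.17.

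In upper glycolysis, 6 of 7 genes were tested and 0 were called, and for all 6 the 95% interval lay within 2-fold either way. Aldoa, the aldolase of muscle and blood cells, led this group with 581, 447 and 484 TPM across CD4SP replicates 1 to 3 and 427, 419 and 322 TPM across CD8SP replicates 1 to 3. The populations did not overlap, but the difference of 0.37 (95% interval 0.03 to 0.72) had a limma adjusted p of 0.110. Aldoc, the brain aldolase, was listed at 0 in 4 libraries and was at 2.01 TPM across CD4SP replicate 3 and 0.291 TPM across CD8SP replicate 2. Gpi1, the isomerase that makes fructose 6-phosphate, was at 229 to 300 TPM across CD4SP and 268 to 334 TPM across CD8SP. Tpi1, which interconverts the triose phosphates, was at 92.5 to 109.6 TPM across CD4SP and 97.6 to 105 TPM across CD8SP.

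Phosphofructokinase, which commits sugar to glycolysis, was supplied mostly by the platelet form. Pfkp was at 78.0, 66.1 and 73.0 TPM across CD4SP replicates 1 to 3 and at 93.6, 91.1 and 79.2 TPM across CD8SP replicates 1 to 3. It was the only tested enzyme of the list with all CD8SP libraries above all CD4SP libraries, and its difference of -0.28 (95% interval -0.58 to 0.02) had a limma adjusted p of 0.163. With quantile normalization, ribosomal protein genes removed or library weights it was -0.53, -0.44 and -0.30, with limma adjusted p of 0.0101, 0.0301 and 0.0467. That p was 0.256 with a replicate block, 0.191 without CD4SP replicate 2 and 0.132 without CD8SP replicate 3. Pfkl, the liver form, was at 9.999, 12.3 and 13.04 TPM across CD4SP and 10.6, 12.5 and 10.2 TPM across CD8SP, and Pfkm, the muscle form, was at 4.35, 2.25 and 4.73 TPM and at 3.12, 2.06 and 5.14 TPM. Both overlapped between the populations. Pfkp held 80.4% to 87.2% of phosphofructokinase TPM in the 6 libraries. The log2 ratio of Pfkl to Pfkp differed by 0.36 and that of Pfkl to Pfkm by -0.04, with exact two-sided permutation p of 0.3 and 0.9, and adjusted p of 0.6 and 0.9. Pfkp overlaps Pitrm1 in the annotation, and how reads of overlapping genes were shared out is not stated.

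Hexokinases, which phosphorylate glucose on entry, were low and varied between replicates. Hk1, the form bound to mitochondria in most tissues, was at 0.905, 0.650 and 11.4 TPM across CD4SP replicates 1 to 3 and at 0.594, 6.50 and 10.98 TPM across CD8SP replicates 1 to 3. Its log2 fold change of -0.62 had a 95% interval of -2.70 to 1.46, the widest among the tested enzymes. The difference was -0.10 without CD4SP replicate 2, -0.03 without CD8SP replicate 3, and 0.47 in the other direction with library weights. It was larger, at -0.85 with median-of-ratios scaling and -0.96 with quantile normalization. Hk2, the insulin- and growth-responsive form, was at 2.17, 2.02 and 1.85 TPM across CD4SP and 1.42, 1.68 and 0.952 TPM across CD8SP. Its populations did not overlap, yet the limma adjusted p was 0.338. Hk1 took between 22.6% and 90.8% of hexokinase TPM, and libraries of the same population lay near both ends. The log2 ratio of Hk1 to Hk2 differed by -0.99 (exact two-sided permutation p of 0.5, adjusted p of 0.6). That difference was -0.54, -0.47 and -1.97 without CD4SP replicate 1, 2 or 3, and -1.88, -0.83 and -0.26 without CD8SP replicate 1, 2 or 3. Hk3 was listed at 0 in 4 of 6 libraries and reached 0.205 TPM at most.

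**Figure D3:**
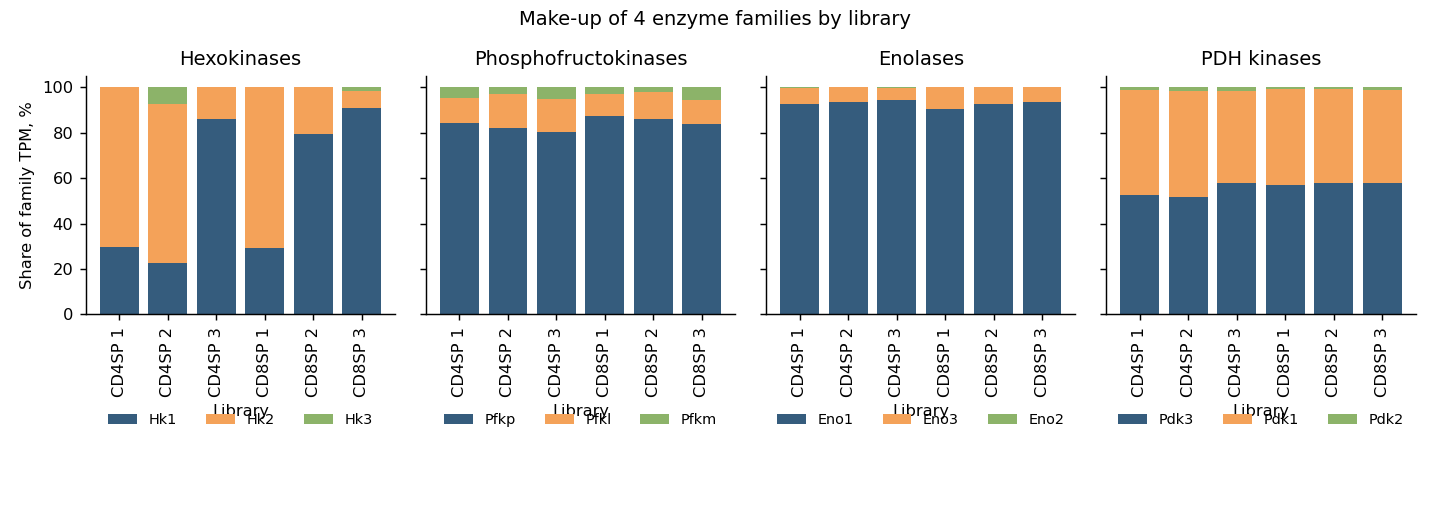
Share of each member in the summed TPM of its family (vertical axis, percent) in each of the 6 libraries (horizontal axis) for hexokinases, phosphofructokinases, enolases and pyruvate dehydrogenase (PDH) kinases. The makeup of the last 3 families is alike in all libraries, while the Hk1 share runs from 22.6% to 90.8%.

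The PFKFB enzymes make and degrade fructose 2,6-bisphosphate, which stimulates phosphofructokinase. Pfkfb3, the form with the strongest kinase activity, was at 9.26, 0.545 and 8.19 TPM across CD4SP replicates 1 to 3 and at 5.78, 5.85 and 6.59 TPM across CD8SP replicates 1 to 3. CD4SP replicate 2 was far below the other 5 libraries, and the log2 fold change of -0.42 had a 95% interval of -1.89 to 1.04. Without that library the difference was 0.46 in the other direction (SE 0.178, limma adjusted p 0.0884), and it was 0.19 with library weights. Pfkfb4 was at 0.353, 2.09 and 1.14 TPM across CD4SP, while CD8SP replicates 1 and 2 held 0.0962 and 0.589 TPM and replicate 3 listed it at 0. Pfkfb2 was at 1.43 to 3.78 TPM across CD4SP and 0.991 to 2.83 TPM across CD8SP.

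At the entry to mitochondria, the E1 subunits of pyruvate dehydrogenase were at higher levels than the kinases that switch the complex off. Pdhb, the beta subunit, was at 177, 199 and 216 TPM across CD4SP replicates 1 to 3 and at 178, 168 and 150 TPM across CD8SP replicates 1 to 3, with overlap by CD4SP replicate 1. Pdha1, the alpha subunit, whose locus overlaps Map3k15, was at 107, 79.4 and 110 TPM across CD4SP and 79.4, 78.1 and 79.1 TPM across CD8SP. For both, the difference was not called, at 0.25 (95% interval -0.03 to 0.54) and 0.30 (95% interval -0.04 to 0.65), with limma adjusted p of 0.181 and 0.177. Among the kinases, Pdk3 was at 47.1, 31.0 and 52.6 TPM across CD4SP and 45.4, 49.8 and 37.3 TPM across CD8SP, and Pdk1 was at 41.3, 27.9 and 36.8 TPM and at 34.04, 35.9 and 26.4 TPM. Both overlapped. Pdk2 stayed at 0.935, 0.958 and 1.24 TPM across CD4SP and 0.496, 0.436 and 0.700 TPM across CD8SP libraries. The log2 ratio of Pdk1 to Pdk3 differed by 0.17 (exact two-sided permutation p of 0.4, adjusted p of 0.6), and leaving out each library gave 0.11 to 0.28.

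The oxidative pentose phosphate enzymes make NADPH, and 0 of 3 were called. Pgls, which opens the lactone ring, was highest, with 143, 273 and 212 TPM across CD4SP replicates 1 to 3 and 247, 233 and 214 TPM across CD8SP replicates 1 to 3, so that CD4SP libraries lay on both sides of the CD8SP range. G6pdx, glucose-6-phosphate dehydrogenase and the rate-limiting step, was at 42.0 to 59.7 TPM across CD4SP and 43.1 to 54.8 TPM across CD8SP. Its log2 fold change was 0.08 (95% interval -0.32 to 0.47). Pgd, which releases CO2 and a further NADPH, was at 41.6 to 68.0 TPM across CD4SP and 56.1 to 66.7 TPM across CD8SP.

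The non-oxidative enzymes convert pentoses back to glycolytic sugars, and 0 of 4 were called. Taldo1, transaldolase, led them with 300, 306 and 293 TPM across CD4SP replicates 1 to 3 and 277, 260 and 244 TPM across CD8SP replicates 1 to 3. The populations did not overlap, but the difference of 0.20 (95% interval -0.03 to 0.44) had a limma adjusted p of 0.189. Tkt, transketolase, the partner of Taldo1, was at 10.4 to 18.6 TPM across CD4SP and up to 18.8 TPM across CD8SP. Rpia and Rpe, which isomerise ribulose 5-phosphate, were at 14.3 to 29.1 TPM over all libraries. Rpe overlaps Kansl1l in the annotation.

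Across the list, the median absolute log2 fold change was 0.20, and the median SD within a population was 0.22. For 25 of 29 tested enzymes (86.2%) the 95% interval of the log2 fold change lay within 2-fold either way, against 58.1% of all tested genes, and the exceptions were Ldhb, Hk1, Pfkfb2 and Pfkfb3. The median log2 fold change was 0.08 over the 29 enzymes and 0.28 over all tested genes. In sign, 17 of the 29 were positive and 12 negative, and 23 lay below the median of all tested genes. In 7 of 29 (24.1%) all CD4SP libraries lay above all CD8SP libraries, against 36.6% of all tested genes, and in 1 of 29 (3.45%) the reverse held, against 6.61%. The 7 were Hk2, Aldoa, Pkm, Ldha, Ldhb, Pdha1 and Taldo1, of which Pdha1 was separated by no more than 79.392 against 79.388 TPM.

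**Figure D4:**
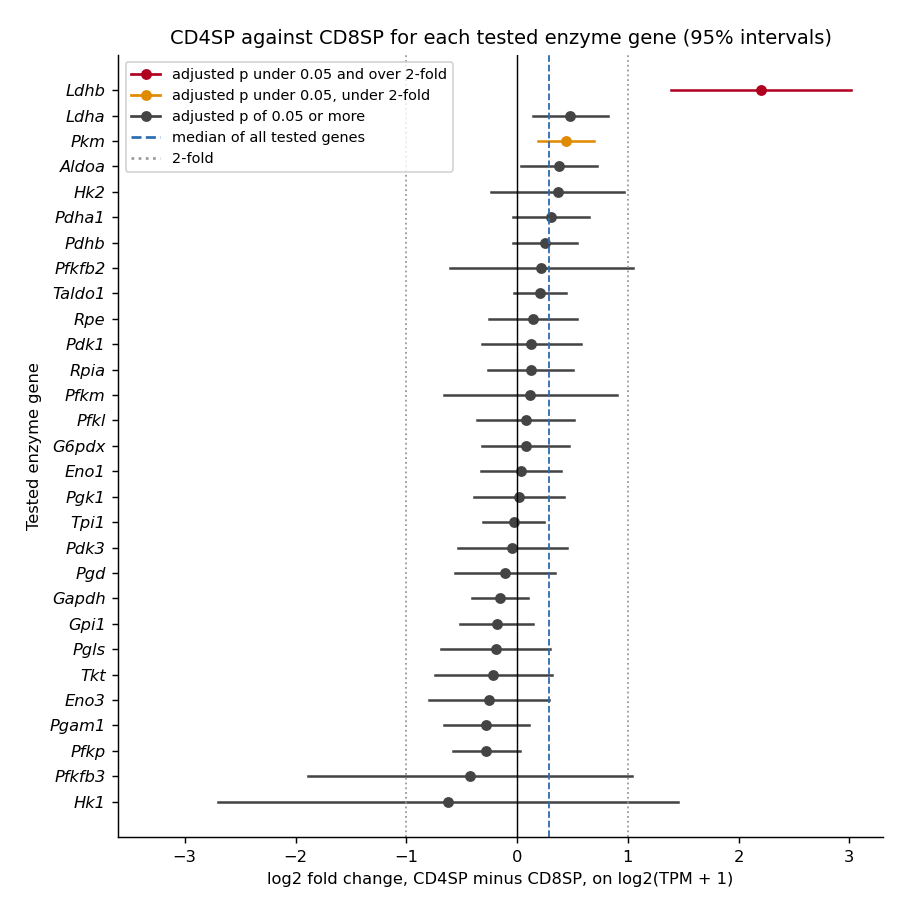
log2 fold change of CD4SP minus CD8SP on log2(TPM + 1) (horizontal axis) with its 95% interval for the 29 tested enzyme genes, with lines at 0, at 2-fold and at the median of all tested genes (0.28). Ldhb lies past 2-fold with its whole interval (1.39 to 3.01), and 25 of the 29 intervals lie within 2-fold.

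The direction of the small differences depended on the scaling of the libraries. Ribosomal protein genes took 24.2% to 28.8% of TPM across CD4SP and 32.2% to 35.96% in CD8SP libraries, and the populations did not overlap. With those genes removed and TPM rescaled, the enzymes had a median log2 fold change of -0.08 and all tested genes one of 0.14. Under median-of-ratios scaling, which centres the median gene, the enzymes had a median log2 fold change of -0.22 and all tested genes one of 0.00, and 22 of 29 enzymes were negative. Gpi1, Pfkp, Gapdh and Pgam1 then passed an adjusted p of 0.05 as lower in CD4SP, with log2 fold changes of -0.49, -0.58, -0.46 and -0.58 and limma adjusted p of 0.0123, 0.00609, 0.0186 and 0.0142, and none of these was past 2-fold. The share of calls higher in CD4SP over all tested genes was 81.5% as deposited, 62.0% with median-of-ratios scaling and 57.0% with quantile normalization. In summed TPM, the 34 enzymes took 0.569%, 0.460% and 0.563% of the library in CD4SP replicates 1 to 3 and 0.479%, 0.477% and 0.411% in CD8SP replicates 1 to 3, which overlap. Their mean sum was 1.17 times higher in CD4SP as deposited and 0.939 times that of CD8SP with median-of-ratios scaling. It was 1.04 times that of CD8SP with ribosomal protein genes removed.

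Libraries of a population differed from each other across many of the enzymes. CD4SP replicate 2 was the lowest of the CD4SP libraries for 22 of 29 tested enzymes and for 57.8% of all tested genes. Likewise CD8SP replicate 3 was the lowest CD8SP library for 19 of 29, against 56.3% of all tested genes. Without CD4SP replicate 2, 1 enzyme was still called, and Ldha, Pkm, Ldhb and Pdha1 passed an adjusted p of 0.05 in limma.

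Other genes of glucose use were examined from a list of 83, of which 81 were in the table and 58 were tested. Of these 58, 8 were called higher in CD4SP, against 7.92% of all tested genes, and 0 higher in CD8SP, against 1.8%. Their median log2 fold change was 0.30, close to the 0.28 of all tested genes. By group, 5 of 26 tested regulators, 2 of 13 enzymes, 1 of 8 transport genes, 0 of 4 genes of the pyruvate dehydrogenase complex and 0 of 7 pentose phosphate genes were called. Under median-of-ratios scaling 6 genes of this list were called, and under quantile normalization 6. Each of these counts included a gene outside the 8, and the count of 0 higher in CD8SP is for TPM as deposited. In that fit Galk1 was the 1 gene of this list under 2-fold and higher in CD8SP at a limma adjusted p under 0.05. Its log2 fold change was -0.90 as deposited and -1.18 relative to the median of all tested genes.

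The 5 called regulators were Hif1a, Epas1, Egln3, Bhlhe40 and Ddit4. In the same list Arnt, the partner of HIF alpha proteins, the hydroxylase Egln2, Vhl, which targets HIF proteins for breakdown, and the HIF target Bnip3 were not called, with log2 fold changes of 0.28, 0.35, -0.02 and 0.68. Bnip3 was near the floor, at 0.240 to 4.38 TPM across CD4SP and 0 to 1.22 TPM across CD8SP libraries. Hif1a, the oxygen-regulated factor that drives glycolytic genes, was at 56.4, 42.0 and 75.7 TPM across CD4SP replicates 1 to 3 and at 18.4, 16.8 and 21.5 TPM across CD8SP replicates 1 to 3. The groups did not overlap, and the difference was 1.54 on the log2 scale (SE 0.222) with a limma adjusted p of 0.00265. Egln3, a prolyl hydroxylase that marks HIF proteins for breakdown, was at 7.29, 7.24 and 4.85 TPM across CD4SP, while CD8SP replicate 2 held 0.619 TPM and CD8SP replicates 1 and 3 listed it at 0 (limma adjusted p 0.000937). Bhlhe40, a repressor induced by activation and by low oxygen, was at 139, 83.7 and 80.6 TPM across CD4SP and 40.1, 39.7 and 37.1 TPM across CD8SP (log2 fold change 1.31, limma adjusted p 0.00420). Ddit4, an inhibitor of mTORC1 signalling, was at 9.94, 11.9 and 15.3 TPM and at 5.05, 2.27 and 3.46 TPM (log2 fold change 1.57, limma adjusted p 0.00678). In contrast Slc2a1, the main glucose importer of activated T cells, was at 24.6 to 29.6 TPM across CD4SP and 22.2 to 30.6 TPM across CD8SP, with a log2 fold change of 0.01 (95% interval -0.38 to 0.41).

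Of the other called genes, Galm, which interconverts the anomers of galactose and glucose, was at 29.1, 19.6 and 33.0 TPM across CD4SP and 9.86, 8.17 and 10.6 TPM across CD8SP (log2 fold change 1.398, limma adjusted p 0.00426). Pck2, the mitochondrial phosphoenolpyruvate carboxykinase, Epas1, the HIF-2 alpha factor, and Slc2a6, a glucose transporter of lysosomes, had log2 fold changes of 1.55, 1.34 and 1.31 with limma adjusted p of 0.0422, 0.0302 and 0.0268. None of these last 3 was called under median-of-ratios scaling, with log2 fold changes of 1.31, 1.14 and 1.12, or under quantile normalization, with 1.17, 0.99 and 0.98. The call of Pck2 was also lost with a pseudocount of 0.1, no filter, ribosomal protein genes removed or no mean-variance trend (log2 fold changes of 1.94, 1.55, 1.52 and 1.55), and without CD4SP replicate 1 or 3 or CD8SP replicate 1 or 3 (log2 fold changes of 1.05 to 1.66 without a library). The call of Epas1 was lost without CD4SP replicate 1 or CD8SP replicate 1 or 3 (1.07 to 1.35), and that of Slc2a6 without CD4SP replicate 1 or CD8SP replicate 1 or 2 (1.22 to 1.35). Both were also lost when CD8SP replicates 1 and 2 were averaged. Under 2-fold, Mpc1, a subunit of the mitochondrial pyruvate carrier, Bpgm, Dera and Egln1 were higher in CD4SP at an adjusted p under 0.05, with log2 fold changes of 0.69, 0.98, 0.53 and 0.57. Galk1, galactokinase, was higher in CD8SP at -0.90 (limma adjusted p 0.0270).

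**Figure D5:**
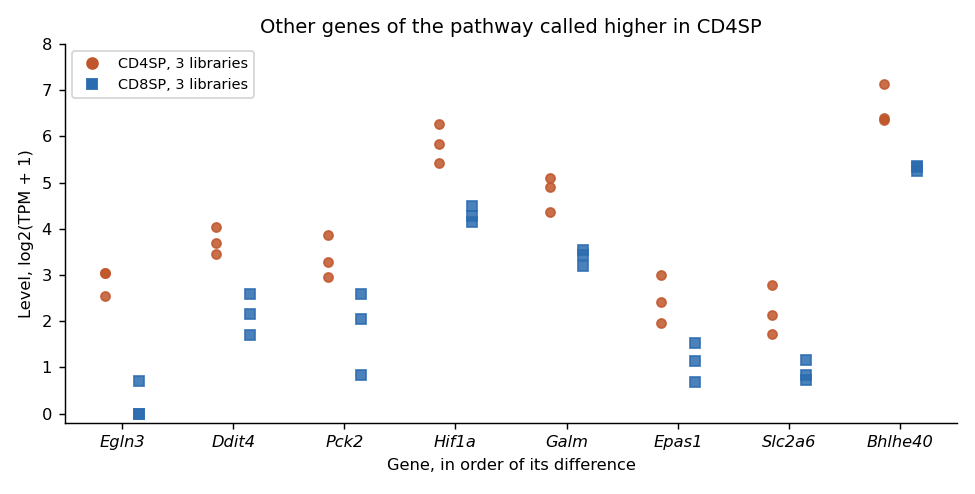
Level as log2(TPM + 1) (vertical axis) of the 8 other genes of glucose use called higher in CD4SP, in 3 CD4SP (circles) and 3 CD8SP (squares) libraries. For each gene all 3 CD4SP libraries lie above all 3 CD8SP libraries, and Hif1a runs from 42.0 to 75.7 TPM against 16.8 to 21.5 TPM.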

How the data were processed

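RNA from 1000 sorted cells per library was amplified as cDNA by the authors with a whole-transcriptome kit, made into libraries with a transposase kit and sequenced on a NextSeq instrument. The authors aligned reads with HISAT2 2.1.0 to mm10 and estimated expression with StringTie 1.3.4, and they deposited TPM with a column per library. Use of strand, removal of duplicates and the sharing of reads between similar genes were not given in the sources used here. TPM is closed to a fixed total, so a gene class that takes more of a library lowers all others.

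Groups and replicate numbers came from sample titles. TPM are not counts, which is why no count model was fitted. Genes at 1 TPM or more in 3 or more of the 6 libraries were fitted as log2(TPM + 1) with limma 3.58.1 in R 4.3.3 (population as the only term, mean-variance trend, Benjamini-Hochberg over all tested genes), and the code was tested on simulated data. Within-family log2 ratios were compared with exact two-sided permutation tests. The enzyme list, the other gene lists and the tests were chosen with earlier results of these data known. Values in every library are printed for enzymes with an adjusted p under 0.05, for the most abundant of each role and for both genes of each ratio pair, and of other genes the called ones are named. Slc2a1, Arnt, Egln2, Vhl and Bnip3 were named after their values were seen, as were the genes past the adjusted p alone.

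Same-numbered libraries had correlations of 0.0515, -0.0168 and 0.0887 between their deviations from the population means, so the numbers were not taken to pair the samples. The labels do not say whether same-numbered libraries share a mouse. Alternatives were median-of-ratios scaling, quantile normalization, a filter of 5 TPM or none, a pseudocount of 0.1, removal of ribosomal protein genes, no variance trend, library weights, a replicate block, no fold threshold, CD8SP replicates 1 and 2 averaged, and leaving out each library. CD8SP replicates 1 and 2 had a Pearson correlation of 0.987. Each had 0.971 with CD8SP replicate 3, and pairs of CD4SP libraries had 0.955 to 0.968. Whether CD8SP replicates 1 and 2 are independent was not tested. Summing Gapdh with Gm12070 was chosen after seeing the data. Copies were searched with blastn 2.17.0 (at least 95% identity over at least 200 nt) among GENCODE M21 transcripts, and positions are 1-based on GRCm38, the assembly of mm10. Promoter sequences are from RefSeq on GRCm38.p6. Besides the marker lists given in the text, 1 further list is not reported here.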

Additional observations from a re-analysis of the deposited data

How the results depend on the processing

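Ldhb alone was called among the enzymes under every alternative with the 2-fold rule, those that left out a library included, and with no fold threshold the count was 2. Over all tested genes the count was 1019, it was 817 to 1202 when each library was left out in turn, and it was 2183 with no fold threshold. Of the other genes of glucose use 8 were called, against 5 with a filter of 5 TPM, which tests fewer genes, 13 with no fold threshold, and 6 to 8 when each library was left out. The log2 ratio of Pfkl to Pfkm, at -0.04, ran from -0.36 to 0.28 when each library was left out, and it was positive without CD4SP replicate 1, CD4SP replicate 3 or CD8SP replicate 2. The ratio of summed enzyme TPM, CD4SP over CD8SP, was 1.17 as deposited and 0.939 with median-of-ratios scaling, where the cause was not tested. With ribosomal protein genes removed this ratio was 1.04, and leaving out each library gave 1.11 to 1.24. Of the 29 tested enzymes, 10 changed sign with median-of-ratios scaling, 9 with quantile normalization and 8 with ribosomal protein genes removed, where the median of all tested genes moved from 0.28 to 0.00, -0.02 and 0.14, and 1 to 5 changed sign when a library was left out. With the replicate number as a block, although the numbers were not taken to pair the samples, 997 genes and 1 enzyme were called (Ldhb, limma adjusted p 0.00306), and 8 other genes of glucose use. TPM carries no depth, so how far low enzymes such as Hk1, Hk3 or Pfkfb4 are limited by sampling of few molecules was not tested.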
